A study of Mus musculus with 2 samples.

Results

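Arterial endothelium lines the vessels that bring blood into a nerve. In the data described here it was the class that the authors' deposited cell table calls EC_ART, in endothelial cells sorted from mouse sciatic nerve. Cells of that class were taken by library and barcode, and a cell was left out where its barcode held at least 5 times its UMIs (unique molecules counted) in the other library. This left 144 cells from injured nerve and 91 from intact nerve, 235 of the 2301 cells with a class and of 3641 barcodes in all. The table itself listed 144 and 93.

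Injured cells came from the lesion site, the bridge region of the sciatic nerve, 7 days after injury, and intact cells came from uninjured sciatic nerves of adult mice. Both groups carried R26-TomatoLSL, a reporter that turns cells red after Cre acts, under Cdh5(PAC)-CreERT2, a Cre that tamoxifen activates and that a promoter of the endothelial cadherin gene drives, so a cell enters the sort through the past activity of that promoter. Nerves were pooled, and tdTomato-positive cells without the blood cell antigen CD45 were sorted before single-cell RNA sequencing. Each group was 1 library of pooled mice. With 1 library a group no test between the groups can be run, and the effect of injury cannot be told apart from that of the mice, the sort or the library. The 95% intervals below cover counting error only, and were exact unless said otherwise. The sex and number of the mice were not given. Both libraries held Xist, which inactive X chromosomes make, at 717 CPM in injured and 335 CPM in intact EC_ART cells (CPM are counts per 1000000 UMIs), and the Y-linked Ddx3y at 31.5 and 61.4 CPM.

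Arterial endothelial cells are set apart from capillary and venous ones during development by VEGF and Notch signalling and by Sox transcription factors. They are coupled by the connexins Gja4 and Gja5, sit on an elastic fibre layer and answer to the high shear of arterial blood through factors such as Klf2 and Klf4. In peripheral nerve, endothelial cells inside the perineurium also take part in the blood-nerve barrier, with tight junctions, efflux pumps and few of the Plvap-bearing openings that leaky vessels use.

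The injured EC_ART cells were sequenced more deeply than the intact ones. They held 2031692 UMIs in all with a median of 11110 per cell, against 602557 UMIs and a median of 4513 in intact cells. Median mitochondrial shares were 4.24% in injured cells and 5.11% in intact cells. The libraries shared 298 barcodes, and 12 intact EC_ART cells and 1 injured one were the deeper holders of a shared barcode and were kept. In the injured library, 10 of the 12 partner barcodes were classed as EC_BAR. Those 12 deep cells carried a large part of the intact RNA, and without all shared barcodes 79 intact cells with 366832 UMIs remained. Shares of cells below were therefore taken after each cell had been thinned at random to 2000 UMIs, which 139 injured and 69 intact cells could give (5 and 22 were too shallow). Unthinned shares over all 144 injured and 91 intact cells are given beside the first ones.

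EC_ART made up 144 of 1274 endothelial cells (11.3%, 9.62 to 13.2) in the injured library and 91 of 718 (12.7%, 10.3 to 15.3) in the intact library. The ratio of the shares was 0.892, with an approximate 95% interval on the log scale of 0.697 to 1.14 that includes equality. A share of sorted cells depends on which vessels the dissected piece held, and the pieces differed between the groups.

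The class name was checked against 6 arterial genes. Levels are CPM of the summed EC_ART cells of a library, and gene positions are those of GENCODE's GRCm38 annotation. Gja4 (chr4:127311421-127314039, minus strand), which encodes connexin 37, stood at 599 CPM (565 to 633) in injured EC_ART cells and 249 CPM (211 to 292) in intact ones, against 22.1 and 11.2 CPM in the other 8 endothelial classes pooled. Gja5 (chr3:96904693-97077416, plus strand), which encodes connexin 40, stood at 133 CPM in injured and 54.8 CPM in intact EC_ART cells, against 2.73 and 1.78 CPM in the other classes. Gkn3 (chr6:87383256-87388935, minus strand) marks arteries in mouse brain. It stood at 114 CPM in injured and 368 CPM in intact EC_ART cells, against 1.89 and 3.55 CPM in the rest. All 6 markers were higher in EC_ART than in the other classes pooled within both libraries. Since the classes may have been drawn from these same genes, that is a check of the name and not a result.

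In cells thinned to 2000 UMIs, at least 2 of the 6 markers were found in 98 of 139 injured EC_ART cells (70.5%) and 47 of 69 intact ones (68.1%). In the other classes with at least 20 cells, that share ran from 0 to 22.9%, with the highest value in the 35 injured EC_BAR cells. Injured EC_BAR, the class named for the barrier, held 273 CPM of Gja4 and 206 CPM of Stmn2, while intact EC_BAR held 14.7 and 1.47 CPM. No marker was found in 18 injured EC_ART cells and in 5 intact ones at this depth.

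**Figure D1:**
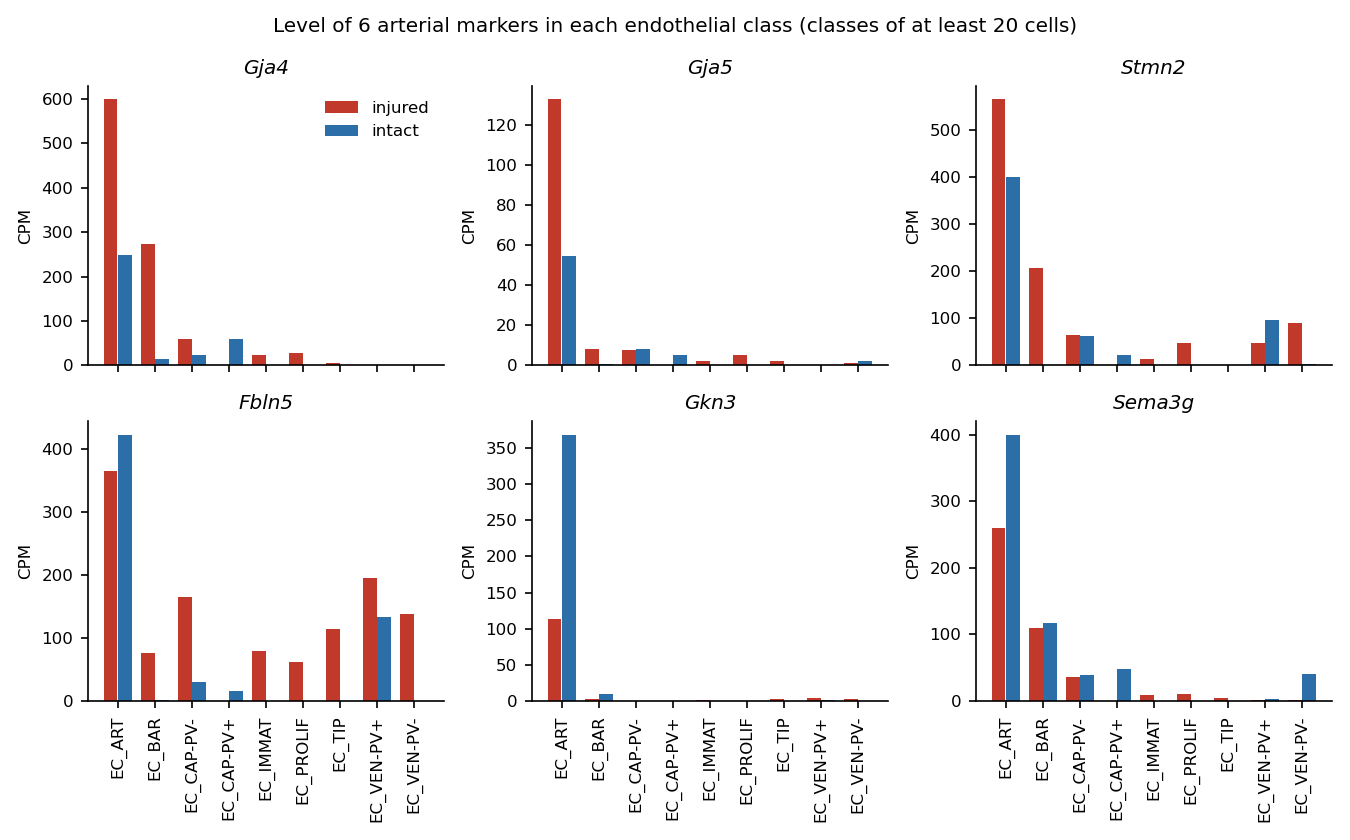
Level in CPM of the 6 arterial markers in each endothelial class, injured (red) left of intact (blue), with 1 bar per class and library. A class with under 20 cells in a library has no bar (EC_CAP-PV+ in injured; EC_IMMAT, EC_PROLIF and EC_TIP in intact). Gja4 stood at 599 CPM in injured and 249 CPM in intact EC_ART cells, and Gkn3 at 114 and 368 CPM.

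The markers did not all differ in one direction between the libraries. Gja4 was 2.40-fold (2.03 to 2.87) and Gja5 2.43-fold (1.69 to 3.60) higher in injured EC_ART cells. Gkn3 was 3.24-fold lower (2.68 to 3.91). Stmn2 (chr3:8509360-8561606, plus strand), which encodes a tubulin-binding protein best known from neurons, was 1.41-fold (1.23 to 1.63) higher, at 564 CPM in injured and 400.0 CPM in intact cells. Sema3g (chr14:31217860-31230352, plus strand), a secreted semaphorin, was 1.54-fold lower, at 260 CPM in injured and 400.0 CPM in intact cells. Fbln5 (chr12:101746565-101819055, minus strand), an elastic fibre protein, was near level, at 365 CPM in injured and 423 CPM in intact cells. The share of thinned cells with a UMI of Gja4 was 66.9% (58.4 to 74.7) in injured and 42.0% (30.2 to 54.5) in intact cells, and that of Gkn3 was 13.7% (8.44 to 20.5) in injured and 36.2% (25 to 48.7) in intact cells. Unthinned, Gja4 was in 91.7% of injured and 58.2% of intact cells, and Gkn3 in 30.6% and 49.5%. In the other endothelial classes Gkn3 was found in 0.358% of injured and 0.778% of intact cells at the same depth. Without the shared barcodes the log2 ratio of Gja5 was 0.62 and that of Gja4 0.96, both under a 2-fold difference.

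Genes were called measured where their CPM, averaged over the injured and intact EC_ART sums, was 50 or more. Of 3120 such genes, 199 (6.38%) were at least 2-fold higher and 229 (7.34%) at least 2-fold lower in injured cells. Here and below, log2 ratios are of injured over intact CPM with 5 CPM added to both. Their median over all 3120 genes was 0.08, and 80% of genes lay between -0.80 and 0.82. Over the same genes, EC_BAR had 174 higher and 182 lower, EC_CAP-PV- had 196 and 206, EC_VEN-PV- had 208 and 224, and EC_VEN-PV+ had 104 and 156. The classes hold different numbers of cells, so these counts differ in precision as well.

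Ctla2a (chr13:60934155-60936625, minus strand), a cathepsin inhibitor homologue, had the highest log2 ratio, 5.16. It stood at 2187 CPM (2123 to 2253) in injured EC_ART cells and 56.4 CPM (39.1 to 78.9) in intact ones. A UMI of Ctla2a was found in 108 of 139 thinned injured cells and 2 of 69 thinned intact cells (90.3% and 15.4% unthinned). The other endothelial classes held 2744 CPM in injured and 700 CPM in intact nerve, and every other intact class with at least 20 cells had between 547 and 1063 CPM.

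Plvap (chr8:71497765-71511752, minus strand), which forms the diaphragms of fenestrae and caveolae in permeable vessels, stood at 620 CPM (586 to 655) in injured EC_ART cells and 36.5 CPM (22.9 to 55.3) in intact ones, 17-fold higher (11.2 to 27.2). Thinned cells with a UMI were 68 of 139 in injured (48.9%) and 8 of 69 in intact nerve (11.6%), and unthinned 76.4% and 15.4%. Among intact classes Plvap ranged from 16.2 CPM in EC_BAR and 44.7 CPM in EC_VEN-PV- to 3582 CPM in EC_CAP-PV+. Among injured classes EC_ART had the lowest level, and the other 7 with at least 20 cells lay between 714 and 1716 CPM. The pooled other classes held 1355 CPM in injured and 1027 CPM in intact nerve. No injured endothelial class lacked Plvap or Ctla2a, so the part of free RNA in their shares of injured cells was not tested. Ctla2a also has a near copy, Ctla2b, with which reads could be split.

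Nts and Bmp2 had no UMI in any intact EC_ART cell. Nts, the precursor of the peptide neurotensin, had 307 UMIs or 151 CPM in injured cells, at least 30.4-fold higher when 3 counts are allowed to the intact sum. It was concentrated in few cells, with a UMI in 9 of 139 thinned injured cells (6.47%) and in 1.25% of the other injured endothelial cells. Bmp2, a bone morphogenetic protein, had 206 UMIs or 101 CPM in injured cells, at least 20.4-fold higher, and a UMI in 21 of 139 thinned cells (15.1%). A UMI of Nts or Bmp2 was found in 0 of 69 thinned intact cells. Taken as 3 counts of 69, this allows up to 4.35% of cells with a UMI at this depth, and sets no limit on cells that express the gene.

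The remaining genes with the 12 highest ratios were Nid1, Lrg1, Lamb1, Mest, Aqp1, Tmem252, Col15a1 and Abca1, with log2 ratios of 3.32 to 4.24. Nid1 and Lamb1, basement membrane proteins, rested on 2 and 3 intact UMIs, and their ratios were 46.0 (12.6 to 381) and 27.6 (9.34 to 135). Lrg1, a secreted glycoprotein that modifies TGF-beta signalling, stood at 326 CPM in injured and 14.9 CPM in intact EC_ART cells. Aqp1, a water channel, stood at 194 CPM in injured and 11.6 CPM in intact cells.

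The lowest log2 ratio was that of Mt1, a metal-binding metallothionein, at -4.62. It stood at 7.38 CPM (4.13 to 12.2) in injured EC_ART cells and 299 CPM (257 to 346) in intact ones. Alpl, tissue-nonspecific alkaline phosphatase, stood at 6.89 CPM in injured and 214 CPM in intact cells, 31.1-fold lower (17.9 to 58.4). A UMI of Alpl was found in 1 of 139 thinned injured cells and 27 of 69 thinned intact ones (4.86% and 52.7% unthinned), against 1.56% of the other intact endothelial cells. Cytl1, a small secreted protein, stood at 23.6 CPM in injured and 657 CPM in intact cells, but its intact counts came from 12 of 69 thinned cells, with up to 18 UMIs in 1 cell. Outside EC_ART it was high in intact EC_VEN-PV+ (495 CPM) and at most 10.6 CPM in the other intact classes.

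Spock2, a matrix proteoglycan, stood at 109 CPM in injured and 1090 CPM in intact EC_ART cells. Gas6, the ligand of the TAM receptor kinases, stood at 41.3 CPM in injured and 354 CPM in intact cells. Cp (ceruloplasmin), Itih5, Clic5, Lef1, Ifi27l2a, Iigp1 and Ifit3 made up the rest of the 12 lowest, with log2 ratios between -3.67 and -3.22. Without the shared barcodes the log2 ratio of Itih5 was -1.97, against -3.64 with them.

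**Figure D2:**
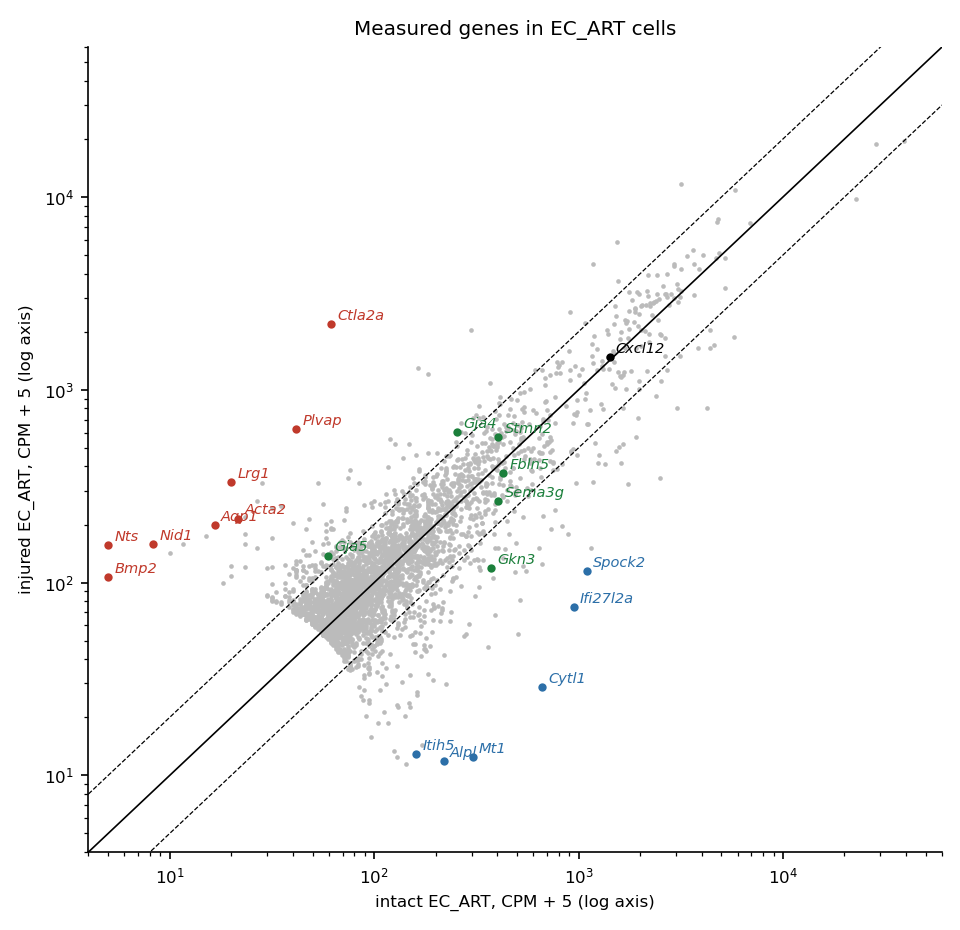
Each point is 1 of 3120 measured genes, with its level in injured EC_ART cells on the vertical axis and in intact EC_ART cells on the horizontal axis, both as CPM plus 5 on log axes. Dashed lines mark a 2-fold difference, green points the 6 arterial markers. Ctla2a and Plvap lie far above the diagonal (2187 against 56.4 CPM and 620 against 36.5 CPM in injured against intact), Mt1, Alpl and Cytl1 far below it.

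**Figure D3:**
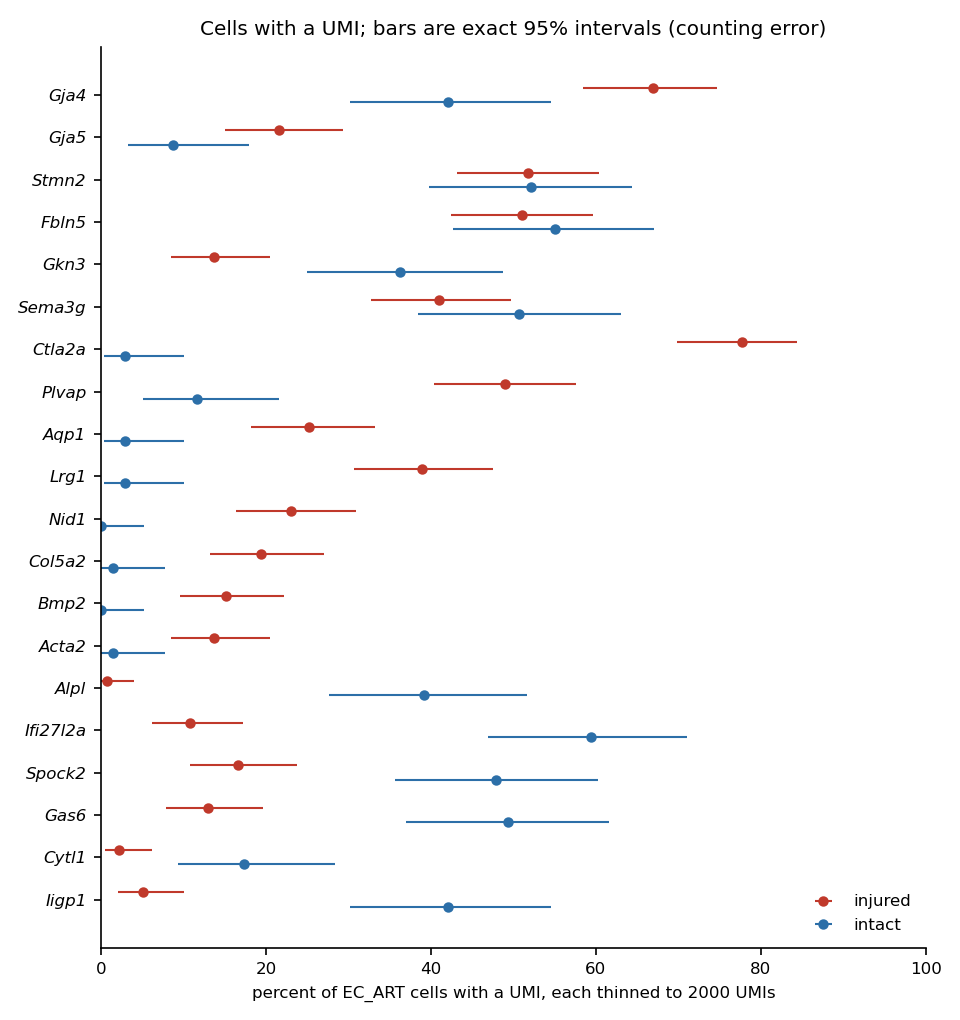
Percent of EC_ART cells with a UMI of each gene after thinning every cell to 2000 UMIs, injured (red, 139 cells) above intact (blue, 69 cells), with exact 95% intervals. Ctla2a was found in 77.7% of injured and 2.90% of intact cells, Alpl in 0.719% of injured and 39.1% of intact cells, and the intervals of Stmn2 overlap (51.8% and 52.2%).

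Most genes on the Notch, arterial transcription factor and other arterial gene lists differed by less than 2-fold between the libraries, as did most of all measured genes. Of 8 measured elastic fibre and artery wall genes, 3 were lower and none higher, with a median log2 ratio of -0.48. In the other classes pooled 2 of these 8 were lower and 1 higher, with a median of -0.38. Class medians ran from -0.44 in EC_CAP-PV- to 1.38 in EC_VEN-PV-. Counts here and in the next paragraph stand against 6.38% of all measured genes higher and 7.34% lower. Of 9 measured Notch pathway genes, none was 2-fold higher and 1 was 2-fold lower, with a median log2 ratio of 0.00. The ligand Jag1 stood at 276 CPM in injured and 276 CPM in intact cells, and the receptor Notch1 at 257 and 294 CPM. The ligand Dll4 stood at 170 CPM in injured and 276 CPM in intact cells. The target Hey1 was level, at 186 CPM in injured and 179 CPM in intact cells, while Hes1, also a target of other pathways, was 4.36-fold lower (3.74 to 5.09), at 146 CPM in injured and 637 CPM in intact cells. In the other endothelial classes pooled the median of the same 9 genes was -0.36, with 3 at least 2-fold lower. By class it was 0.03 in EC_BAR, -0.38 in EC_CAP-PV-, -0.19 in EC_VEN-PV+ and -0.06 in EC_VEN-PV-.

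Among 10 measured arterial transcription factors the median log2 ratio was -0.47, and Gata2 alone was past 2-fold, at 62.0 CPM in injured and 169 CPM in intact cells. Sox17, which is needed for arterial identity in mouse development, stood at 476 CPM in injured and 913 CPM in intact cells, a log2 ratio of -0.93. Of 17 measured genes on a list of other arterial genes, 2 were higher and 4 lower, with a median of -0.57. Efnb2, the ephrin that marks arteries opposite venous Ephb4, was 2.08-fold higher (1.69 to 2.58), at 358 CPM in injured and 173 CPM in intact cells. Its share of thinned cells was 50.4% in injured and 21.7% in intact cells, and unthinned 85.4% and 48.4%. Alpl (above), the kinase Bmx, the growth factor Vegfc and Mgp, an inhibitor of vessel calcification, were the 4 lower ones. Bmx stood at 128 CPM in injured and 314 CPM in intact cells. In the other endothelial classes pooled the same 17 genes had a median of -1.29, with 1 higher and 11 lower. By class the median was -0.07 in EC_BAR, -0.33 in EC_CAP-PV-, -0.83 in EC_VEN-PV+ and -0.45 in EC_VEN-PV-. The pooled value lies below each of these, and the make-up of the pool differs between the libraries.

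Enrichment over the other 8 classes was set at 4-fold among genes with at least 100 CPM in EC_ART. It held for 38 of 1571 genes (2.42%) in injured cells and 23 of 1505 (1.53%) in intact cells, and both lists contain markers that the class name was checked with. Col5a2, a fibrillar collagen chain, and Slc45a4 were among the 10 most enriched injured genes. Col5a2 stood at 153 CPM in injured EC_ART cells and 18.3 CPM in intact ones, and was found in 19.4% of thinned injured and 1.45% of thinned intact cells. Slc45a4, a solute carrier, stood at 103 CPM in injured and 14.9 CPM in intact cells. S100a4, a calcium-binding protein, and Col8a1, a short-chain collagen, were enriched in both libraries and level between them. S100a4 stood at 181 CPM in injured and 221 CPM in intact EC_ART cells, against 8.47 and 2.28 CPM in the rest. Col8a1 stood at 168 CPM in injured and 163 CPM in intact EC_ART cells, against 10.1 and 8.38 CPM in the rest. Nebl, an actin-binding protein, and Atp2a3, a calcium pump, were among the 10 most enriched intact genes. They stood at 33.5 and 40.4 CPM in injured and at 105 and 171 CPM in intact EC_ART cells. Both thus lay under the 100 CPM needed to be ranked in injured cells. Nebl was found in 5.76% of thinned injured EC_ART cells and 0.179% of the other injured endothelial cells, and Atp2a3 in 12.2% and 0%.

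Basement membrane genes were higher, with 9 of 16 measured members at least 2-fold higher, against 6.38% of all measured genes, and none lower. Their median log2 ratio was 1.72, against 0.08 over all measured genes. Collagen IV forms the network of every basement membrane. Col4a1 was 6.99-fold higher (6.01 to 8.17), at 2041 CPM in injured and 292 CPM in intact EC_ART cells. Col4a2 stood at 1286 CPM in injured and 159 CPM in intact cells. The linker Nid1, the laminin beta 1 chain Lamb1 and Col15a1 had the highest ratios of the list. The laminin gamma 1 chain Lamc1 was 3.38-fold higher (2.35 to 5.02), at 180 CPM in injured and 53.1 CPM in intact cells. The laminin chains Lama4, Lama5 and Lamb2 differed by less than 2-fold. Lama4 stood at 104 CPM in injured and 94.6 CPM in intact cells, Lama5 at 83.2 and 88.0 CPM, and Lamb2 at 123 and 227 CPM. The other endothelial classes had a median of 1.03 for the same genes, with 9 higher and 2 lower.

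The 3 measured insulin-like growth factor binding proteins were all at least 2-fold higher, against 6.38% of all measured genes. Their median was 1.55, and in the other classes pooled 2 were higher, with a median of 1.10. By class the median was 1.77 in EC_BAR, 0.67 in EC_CAP-PV-, 0.42 in EC_VEN-PV+ and 0.49 in EC_VEN-PV-. Igfbp7 stood at 5858 CPM in injured and 1535 CPM in intact EC_ART cells, Igfbp4 at 1076 and 365 CPM, and Igfbp3 at 589 and 272 CPM. Of 17 measured cytoskeletal genes 5 were higher, against 6.38% of all measured genes, and none lower, with a median of 0.52. Among the higher ones was Vim, the intermediate filament vimentin, at 11690 CPM in injured and 3152 CPM in intact cells. By class the log2 ratio of Vim was 1.42 in EC_BAR, 2.40 in EC_CAP-PV-, 0.05 in EC_VEN-PV+ and 0.25 in EC_VEN-PV-. In the other classes pooled 3 of the 17 cytoskeletal genes were higher and 2 lower, with a median of 0.35. Class medians of that list ran from -0.63 in EC_BAR to 0.31 in EC_VEN-PV+. Kdr, the main VEGF receptor, was 2.31-fold higher (1.86 to 2.91), at 346 CPM in injured and 149 CPM in intact cells. Its decoy relative Flt1 stood at 660 CPM in injured and 1099 CPM in intact cells. Gpihbp1, which carries lipoprotein lipase into capillaries, stood at 239 CPM in injured and 26.6 CPM in intact cells. It alone was past 2-fold of 4 measured capillary markers, whose median log2 ratio was -0.09. The others were Rgcc at 0.30, Fabp4 at -0.47 and Cd36 at -0.87.

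Genes of the blood-nerve barrier were lower. Of 11 measured members 9 were at least 2-fold lower, against 7.34% of all measured genes, and none higher. Their median log2 ratio was -1.60, and that of the other endothelial classes pooled -2.51. By class the median was -1.21 in EC_BAR, -0.27 in EC_CAP-PV-, -0.56 in EC_VEN-PV+ and -2.00 in EC_VEN-PV-. The pooled value lies below each of these, and the make-up of the pool differs between the libraries. The glucose transporter Slc2a1 stood at 117 CPM in injured and 529 CPM in intact EC_ART cells, 4.54-fold lower (3.82 to 5.39). Mfsd2a, a lipid transporter that limits vesicle traffic in brain vessels, stood at 24.6 CPM in injured and 219 CPM in intact cells. The efflux pump Abcb1a stood at 216 CPM in injured and 662 CPM in intact cells, and Lef1, a transcription factor of Wnt signalling, at 7.38 and 124.5 CPM. Cldn5, the claudin that seals junctions between endothelial cells, stood at 2046 CPM in injured and 4385 CPM in intact cells, which is 2.14-fold lower (2.04 to 2.25). It was found in 83.5% of thinned injured and 97.1% of thinned intact EC_ART cells, against 38.3% and 50.4% of the other endothelial cells. Without the shared barcodes 8 of these genes were measured, and their median was -0.98.

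The counts of lower genes in the next lists stand against 7.34% of all measured genes. Of 8 measured flow response genes 3 were lower and none higher, with a median of -0.83. In the other classes pooled 6 were lower, with a median of -1.62. By class the medians ran from -0.99 in EC_CAP-PV- to -1.31 in EC_VEN-PV-, each below that of EC_ART. Klf2 stood at 1633 CPM in injured and 4383 CPM in intact EC_ART cells and Klf4 at 927 and 2390 CPM. The other was Timp3, an inhibitor of matrix proteases, at 413 CPM in injured and 1241 CPM in intact cells, and the nitric oxide synthase Nos3 was level, at 120 and 116 CPM. Immediate early genes, which cells switch on within minutes of a stimulus, were lower too, with 12 of 17 past 2-fold, 1 higher and a median of -1.45. Fos stood at 1878 CPM in injured and 5787 CPM in intact cells, and Jun at 802 and 3040 CPM. Klf2 and Klf4 are induced by such stimuli too. Of 14 measured BMP and TGF-beta genes 1 (Bmp2) was higher and 4 lower, among them the BMP targets Id1, at 407 CPM in injured and 1346 CPM in intact cells, and Id3, at 501 and 1568 CPM. Of 6 measured clock genes 4 were lower and none higher, led by Dbp, an output gene of the clock, at 25.6 CPM in injured and 131 CPM in intact cells. In the other classes pooled, 10 immediate early, 5 BMP and TGF-beta and 5 clock genes were lower. Their medians there were -1.23, -0.62 and -1.34, and 1 BMP and TGF-beta gene was higher. By class, immediate early medians ran from -0.41 in EC_VEN-PV- to -0.98 in EC_VEN-PV+. Those of BMP and TGF-beta genes ran from -0.10 in EC_CAP-PV- to -0.52 in EC_BAR, and those of clock genes from -0.97 to -1.05.

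**Figure D4:**
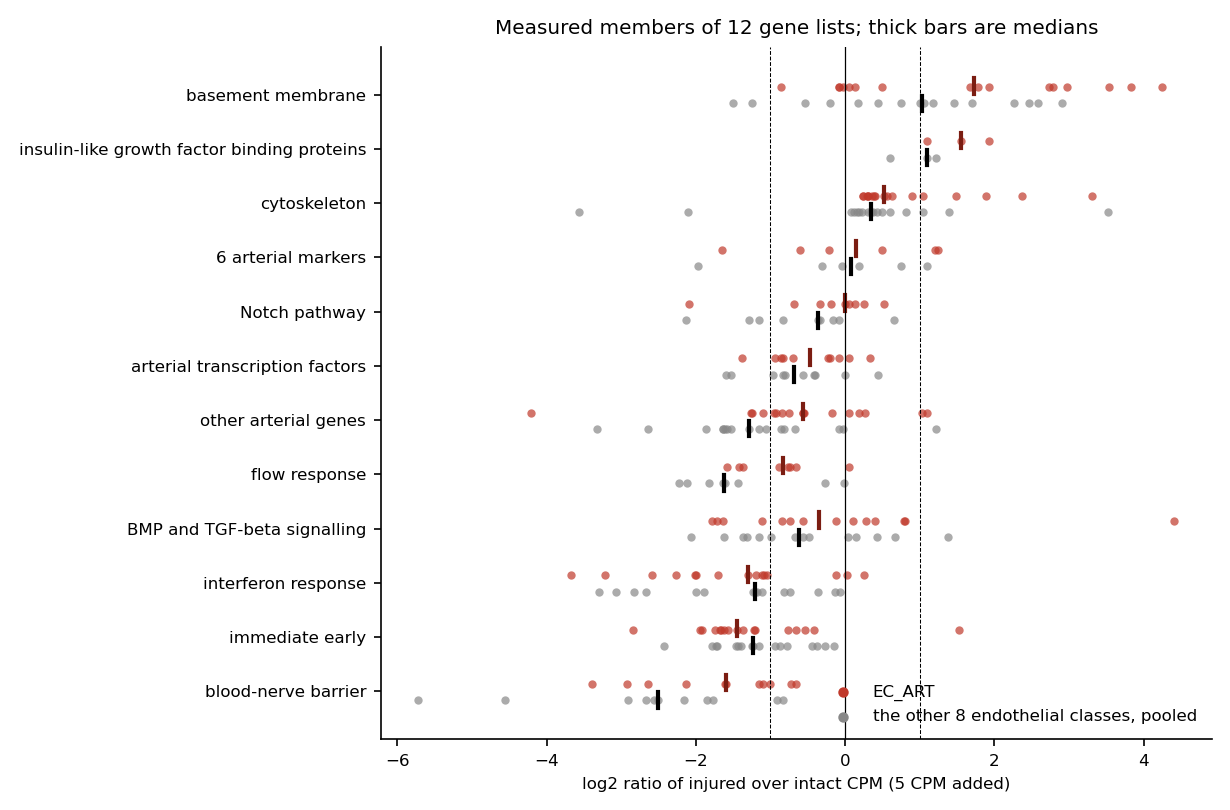
Log2 ratio of injured over intact CPM for each measured member of 12 gene lists, with EC_ART (red, upper line of each list) and the other 8 endothelial classes pooled (grey, lower line). Thick bars are medians and dashed lines mark 2-fold. The EC_ART medians run from 1.72 for basement membrane to -1.60 for the blood-nerve barrier, where the other classes pooled lie at 1.03 and -2.51. The pool differs in make-up between the libraries, so its median need not be that of any single class.

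Interferon response genes were lower as well, with 12 of 15 measured members at least 2-fold lower, against 7.34% of all measured genes, none higher and a median of -1.30. In the other classes pooled 10 were lower, with a median of -1.21. By class the medians ran from -0.33 in EC_VEN-PV+ to -1.50 in EC_VEN-PV-. Many interferon-induced genes share a short motif in their promoters, and those of the list were searched for GAAANNGAAA on both strands, from 250 bases before to 50 after the start in RefSeq's promoter table for GRCm38.p6. It was found in 8 of the 12 measured members with a promoter there (66.7%) and in 1079 of 27025 promoters in the table (3.99%). A match is a run of letters and not a shown binding site. Matches from members that were lower and from members that were level are printed below, as 40 bases of the gene's own strand with the match in capitals, which reads TTTCNNTTTC where it lies on the other strand.
Isg15, chr4:156200860-156200899, minus strand: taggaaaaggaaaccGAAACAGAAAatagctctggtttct
Ifit1, chr19:34640789-34640828, plus strand: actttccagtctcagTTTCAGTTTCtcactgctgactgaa
Ifit3, chr19:34583392-34583431, plus strand: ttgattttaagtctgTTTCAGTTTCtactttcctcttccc
Ifit3b, chr19:34607788-34607827, plus strand: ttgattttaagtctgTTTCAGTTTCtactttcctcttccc
Bst2, chr8:71537572-71537611, minus strand: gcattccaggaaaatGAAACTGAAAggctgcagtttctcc
Ifitm2, chr7:140955983-140956022, minus strand: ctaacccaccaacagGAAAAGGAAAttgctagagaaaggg

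Isg15, a ubiquitin-like protein, stood at 109 CPM in injured and 546 CPM in intact EC_ART cells, 5.00-fold lower (4.20 to 5.95). Ifit1, which binds viral RNA, stood at 22.1 CPM in injured and 158 CPM in intact cells. Ifit3 stood at 8.37 CPM in injured and 119.5 CPM in intact cells, but Ifit3 and Ifit3b are near copies, with the same 40 bases printed above, and reads could be split between them. Bst2, a membrane protein that tethers viruses, and Ifitm2, which blocks viral entry, hold the motif too and were level. Bst2 stood at 477 CPM in injured and 518 CPM in intact cells and Ifitm2 at 909 and 763 CPM. The 4 measured members without a match in this window, named here for that reason after their values were seen (Ifi35, Irf7, Irf9 and Oasl2), were all at least 2-fold lower. Ifi27l2a, an interferon-induced gene with no entry in the promoter table, had the lowest ratio of the list, at 69.4 CPM in injured and 941 CPM in intact EC_ART cells, and its level in the other endothelial classes was 20.3 CPM in injured and 88.8 CPM in intact nerve.

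Some genes differed between the libraries in EC_ART in another way than in the remaining endothelial cells. Both sets of values come from the same libraries and were not tested against each other. The pooled classes also differ in make-up, with 36 injured and 181 intact EC_BAR cells, 121 and 44 EC_VEN-PV- cells, and 260, 162 and 100 injured cells of EC_IMMAT, EC_PROLIF and EC_TIP, which had under 20 each in intact nerve. A pooled ratio therefore need not be that of any 1 class. Cxcl12, a chemokine that recruits stem and immune cells, was level in EC_ART, at 1469 CPM in injured and 1412 CPM in intact cells, while the other classes held 197 CPM in injured and 2016 CPM in intact nerve. Among injured classes with at least 20 cells EC_ART had the highest level, and the next were EC_CAP-PV- with 886 CPM and EC_BAR with 874 CPM. Among intact classes EC_ART lay below the capillary and barrier classes (3025 to 5278 CPM) and above both venous ones (461 and 1258 CPM). Aqp1, higher in injured EC_ART cells (above), stood at 678 CPM in injured and 1345 CPM in intact nerve in the other classes pooled. By class it was higher in injured EC_BAR too, at 1006 CPM in injured and 27.2 CPM in intact nerve, and in injured EC_VEN-PV-, at 1676 and 71.1 CPM. It was lower in injured EC_CAP-PV-, at 954.5 CPM in injured and 2667 CPM in intact nerve, and in injured EC_VEN-PV+, at 1266 and 2825 CPM. Bgn, the matrix proteoglycan biglycan, stood at 40.4 CPM in injured and 173 CPM in intact EC_ART cells, against 261 and 176 CPM in the others. Tgfbi, a matrix protein induced by TGF-beta, stood at 18.2 CPM in injured and 1.66 CPM in intact EC_ART cells, against 250 and 9.14 CPM in the others. Chga, a granule protein, stood at 12.3 CPM in injured EC_ART cells and had no UMI in intact ones, against 134 and 0.254 CPM in the others. Of the injured classes EC_TIP had the highest Chga level, at 739 CPM, while EC_VEN-PV- had 1.39 CPM and EC_BAR had no UMI.

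**Figure D5:**
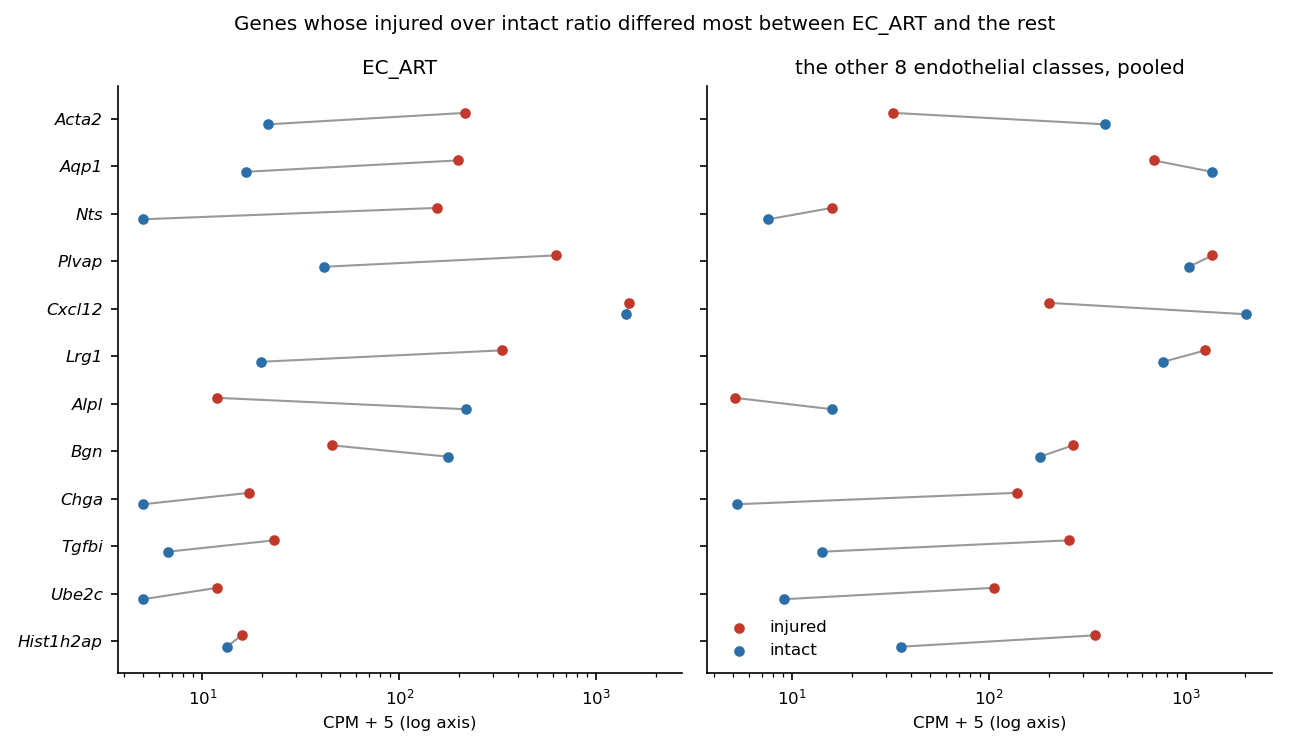
Level, as CPM plus 5 on a log axis, of the 12 genes whose injured over intact ratio differed most between EC_ART (left) and the other 8 endothelial classes pooled (right), injured in red above intact in blue. Acta2 is higher in injured than in intact nerve on the left (210 and 16.6 CPM) and lower on the right (27.6 and 382 CPM). Cxcl12 is level on the left (1469 and 1412 CPM). Chga, Tgfbi and Ube2c had few or no UMIs in intact EC_ART cells, so their ratios on the left depend on the 5 CPM added.

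Acta2 encodes the smooth muscle actin of mural cells, the muscle cells and pericytes around vessels. It stood at 210 CPM (190 to 231) in injured EC_ART cells and 16.6 CPM (7.96 to 30.5) in intact ones, while the other classes pooled held 27.6 CPM in injured and 382 CPM in intact nerve. By class, EC_BAR held 62.0 CPM in injured and 909 CPM in intact nerve, EC_VEN-PV- 4.88 and 473 CPM, and EC_CAP-PV- 0.951 and 24.7 CPM. EC_VEN-PV+ was level, at 13.5 CPM in injured and 12.6 CPM in intact nerve. A UMI was found in 19 of 139 thinned injured and 1 of 69 thinned intact EC_ART cells (24.3% and 5.49% unthinned). The 12 mural markers summed to 287 CPM in injured and 116 CPM in intact EC_ART cells, with 9 and 7 of them detected, and to 213 and 1212 CPM in the other classes. Myh11 and Cnn1, which define smooth muscle, had no UMI in either EC_ART sum, and the pericyte receptor Pdgfrb stood at 0.492 CPM in injured and 6.64 CPM in intact cells. When cells with at least 2 UMIs of the mural list, which includes Acta2, were left out, 108 injured and 82 intact cells remained and the log2 ratio of Acta2 was 0.59. Markers of fibroblasts summed to 33.0 CPM in injured and 36.5 CPM in intact cells and those of myeloid cells to 8.86 and 18.3 CPM. Venous markers summed to 766 CPM in injured and 300.4 CPM in intact cells, of which Lrg1 gave 326 and 14.9 CPM, and capillary markers to 1805 and 2162 CPM.

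Mitosis genes were found in few EC_ART cells. The 16 genes of the list, which include Mki67 and Top2a, summed to 96.0 CPM in injured and 6.64 CPM in intact EC_ART cells, against 743 and 44.9 CPM in the other classes. A UMI of any of them was found in 17 of 139 thinned injured cells (12.2%, 7.29 to 18.9) and 1 of 69 thinned intact cells (1.45%, 0.0367 to 7.81). In the other endothelial classes pooled those shares were 22.6% in injured and 3.31% in intact nerve, and the injured share includes 141 of 159 EC_PROLIF cells (88.7%). The other injured classes with at least 20 cells lay between 8.57% in EC_BAR and 18.6% in EC_TIP, on both sides of EC_ART. Unthinned, at least 2 of the 16 genes were found in 27 of 144 injured and 0 of 91 intact EC_ART cells, whose depth differs. In the other classes pooled it was 320 of 1130 injured and 9 of 627 intact cells. Without those 27 cells, 1379027 of the 2031692 injured EC_ART UMIs remained. No mitosis gene reached the mean of 50 CPM. Ube2c, a ubiquitin enzyme of mitosis, stood at 6.89 CPM in injured EC_ART cells with no UMI in intact ones, and at 101 and 4.06 CPM in the others.

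EC_ART cells also differed among themselves. The Fano factor, the variance over the mean of UMIs per thinned cell, had a median of 1.23 over 718 genes in injured cells and 1.25 over 688 genes in intact cells. Mgp had 12 in injured and 27.0 in intact cells, with a UMI in 69 of 139 and 41 of 69 cells. Fabp4, a fatty acid carrier of capillaries, had 11.6 in injured and 8.79 in intact cells. Ctla2a had 6.75 in injured cells, and Cytl1 had 11.1 in intact cells.

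Cells with and without a UMI of Gkn3 are given side by side as a description, with no test, since both come from the same library. Mgp was in 16 of the 19 thinned injured cells with Gkn3 (84.2%) and in 44.2% of the 120 without it, and in 24 of the 25 intact cells with Gkn3 and 38.6% of the 44 without it. In injured cells the elastic fibre protein Eln was in 73.7% of cells with Gkn3 and 28.3% of those without, Slc45a4 in 57.9% and 10.8%, and Col5a2 in 9 of 19 and 18 of 120. Shares ran the other way for Ctla2a, which was in 42.1% of injured cells with Gkn3 and 83.3% of those without, for Plvap (21.1% and 53.3%) and for Cxcl12 (47.4% and 79.2%). In intact cells Alpl was in 5 of the 25 cells with Gkn3 and 22 of the 44 without, Cxcl12 in 13 and 35, and Ifi27l2a in 11 and 30. The values thus place Mgp beside Gkn3 and Cxcl12 apart from it in both libraries.

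Injured EC_ART cells were described by Plvap in the same way. Ctla2a was in 89.7% of the 68 thinned cells with Plvap and 66.2% of the 71 without it, Col15a1 in 26.5% and 5.63%, and Aqp1 in 35.3% and 15.5%. Mgp was in 35.3% of cells with Plvap and 63.4% of those without, Stmn2 in 38.2% and 64.8%, Eln in 23.5% and 45.1%, and Gja5 in 11.8% and 31.0%. Of the remaining arterial markers, Fbln5 was in 41.2% of cells with Plvap and 60.6% of those without, Sema3g in 32.4% and 49.3%, and Gkn3 in 5.88% and 21.1%. Gja4 was in 70.6% of cells with Plvap and 63.4% of those without. Plvap was thus found in injured cells that also held Gja4 (48 of the 68 cells with Plvap). The rest of the 6 markers were each in a smaller share of cells with Plvap than of cells without it.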

How the data were processed

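The deposited files held raw UMI counts per gene and barcode for each library, written by Cell Ranger 3.0.2 per the file headers. The submitters' processing notes list Cell Ranger 6.1.2, Seurat 4.0.1 and the mm10 build. How the authors assigned the classes was not stated in the labels or files. Cells of a class were summed per library and scaled to counts per 1000000 UMIs. Python 3.11.15 with numpy 2.4.6, scipy 1.17.1 and pandas 2.3.3 was used, and the calculations were checked on simulated counts. No doublet caller was run. With 1 library per group, a gene was called where its ratio passed 2-fold. Intervals were exact Poisson for CPM, exact conditional binomial for ratios and Clopper-Pearson for shares, each at 95%. A floor of 3 counts was used for a sum of 0. Of 53380 gene IDs, 99.8% had a position in the GENCODE annotation.

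The members and the 45 gene lists were chosen with earlier results of these data known. Genes were named by a rule. It takes the 6 markers, the 12 highest and 12 lowest ratios at 100 CPM and 30 UMIs, the 10 most enriched and 10 most variable per library, the 6 each way that differed most from the other classes, and up to 3 members each way and 4 others per list. Mitochondrial, ribosomal, unnamed, haemoglobin, immunoglobulin and sex-linked genes were left out of the ranked parts.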

Additional observations from a re-analysis of the deposited data

Results flagged for a closer look

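Acta2 had a log2 ratio of 3.31 in EC_ART cells and of -3.57 in the other 8 endothelial classes pooled. By class the log2 ratio was -3.77 in EC_BAR, -5.60 in EC_VEN-PV-, -2.32 in EC_CAP-PV- and 0.07 in EC_VEN-PV+, so Acta2 was not lower in every other injured class, and the pooled value mixes classes whose shares of cells differ between the libraries. It was the only 1 of the 3120 measured genes that was at least 2-fold higher in EC_ART and at least 2-fold lower in the other classes pooled, and 0 genes showed the opposite. The difference was not tested, since each group was 1 library. The mural markers of which Acta2 is one summed to 287 CPM in injured and 116 CPM in intact EC_ART cells, and to 213 and 1212 CPM in the other classes; their part in the result was not tested.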

How the results depend on the processing

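Counts of genes past 2-fold depended on which genes were tested. With a mean of 20 CPM, 367 were higher and 443 lower in injured cells, and with no filter 743 and 826. After thinning every cell to 2000 UMIs, 310 were higher and 276 lower. The median of the blood-nerve barrier list was -0.98 without the shared barcodes, with 8 genes measured. Of 704 values of 44 named genes under 16 settings, 82 moved beyond counting error and 0 of those past 2-fold changed direction. The settings of 20 CPM and of no filter are among the 16. They change only which genes are measured, so the value of a named gene cannot move under them. Of 512 values of 32 list medians 7 moved by over 1.5 times and 0 changed direction from past 2-fold. Calls were lost for Gja4 (0.96) and Gja5 (0.62) without the shared barcodes and Acta2 (0.59) without mural marker cells. The mural list includes Acta2, so cells were left out there for holding Acta2 itself, and that value is no independent check. Gja5 stayed past 2-fold in 13 of 16 settings, with both filter settings among the 13. Ratios also fell under 2-fold for Chga (0.69) and Tgfbi (0.82) with 20 CPM added. The same held for Ube2c (0.37) without cells holding G2/M genes, a setting that picks cells by mitosis genes. Chga, Tgfbi and Ube2c lay under the mean of 50 CPM in EC_ART and had not been called. Thinning the injured sum to the intact total, a setting chosen after seeing the data, gave 210 higher and 231 lower. The smaller intact sum limits low genes. No paired analysis was possible because each group was 1 library.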

Other observations

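Some barcodes had no class in the deposited table. Among those with at least 2000 UMIs, 28 of 369 in the injured library (7.59%, 5.10 to 10.8) and 53 of 562 in the intact library (9.43%) held at least 2 of the 6 arterial markers after thinning. In those 28 and 53 barcodes fibroblast markers summed to 9225 CPM in injured and 6845 CPM in intact nerve, and mural markers to 2186 and 3439 CPM, against 33.0 and 36.5 CPM of fibroblast markers in EC_ART cells. Pan-endothelial markers summed to 2868 CPM in injured and 1456 CPM in intact nerve, against 4823 and 4381 CPM in EC_ART cells.

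Counts of lower genes below stand against 7.34% of all measured genes. Ptn, a secreted growth factor for nerve cells and glia, stood at 146 CPM in injured and 1140 CPM in intact EC_ART cells. It was the 1 of 5 measured secreted factors for nerve cells past 2-fold, with a list median of -0.29. In the other classes pooled 4 of the 5 were lower, with a median of -1.53, and class medians ran from -0.03 in EC_CAP-PV- to -1.71 in EC_VEN-PV-. The heat shock genes Hspa1a, Hspa1b, Hspb1 and Dnajb1 were at least 2-fold lower of 11 measured, with log2 ratios of -2.68, -2.40, -1.82 and -1.40. The median of the 11 was -0.14, and in the other classes pooled 3 were lower, with a median of -0.16. Of 11 measured genes of MHC class I and antigen processing, 3 were lower and 0 higher, led by H2-T23 at -2.51. Their median was -0.74, and in the other classes pooled 2 were lower, with a median of -0.59.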
